A study of Homo sapiens with 16 samples.

Results

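The urea cycle and the first steps of glutamine breakdown were followed through 9 enzyme genes, CPS1, OTC, ASS1, ASL, ARG1, ARG2, NAGS, GLS2 and GLUD1, chosen by name among the 26258 genes of an RNA-sequencing table of hepatocellular carcinoma cell lines. The table holds 16 libraries of poly(A) RNA in 8 groups with 2 replicates each. Huh7 and Hep3B are established human liver cancer lines, and each was sequenced as parental cells and as DMSO cells, both labelled untreated, and as cells resistant to the multi-kinase inhibitor Sorafenib. The resistant cells had been raised in increasing concentrations (Huh7-IR, Hep3B-IR) or at a constant high concentration (Huh7-CR, Hep3B-CR) and are labelled with Sorafenib at 7 µM, so that selection and the presence of the drug cannot be told apart. Each resistant line was derived once, and the labels do not say whether the 2 replicates of a group were separate cultures, so p-values measure the spread between these libraries only. How long the DMSO cells were kept in culture is not given in the sources used here.

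Liver cells turn ammonia, which is toxic, into urea. In mitochondria CPS1 joins ammonia and bicarbonate to carbamoyl phosphate, an enzyme that works only with N-acetylglutamate made by NAGS, and OTC couples carbamoyl phosphate to ornithine to give citrulline. In the cytosol ASS1 joins citrulline and aspartate, ASL splits the product into arginine and fumarate, and the liver arginase ARG1 releases urea and returns ornithine, whereas ARG2 is the mitochondrial arginase found in many tissues. GLS2, the liver-type glutaminase, and GLUD1, glutamate dehydrogenase, release ammonia from glutamine and glutamate. The full cycle runs in periportal hepatocytes, and many liver tumours lose parts of it.

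The promoters of 4 of the genes are shown as examples of low (ARG1, OTC) and high (ARG2, ASS1) GC content. They do not stand for all 9 genes. NAGS and GLS2 were also read at low levels, but their windows have GC contents of 64.3% and 67.3%. All 9 genes matched RefSeq promoters on GRCh38.p14, each window covering 250 bases before to 50 after a start site, with 12 windows in all. ARG1 and OTC are cycle enzymes that were almost unread in resistant cells, ARG2 changed in opposite directions in Huh7 and Hep3B cells, and ASS1 had the largest rise over parental cells among the 4 resistant lines. Capitals mark matches on either strand to the GC box (GGGCGG), the TATA box (TATAAA) and the core of the hypoxia response element (ACGTG, whose reverse complement is CACGT, so that CACGTG holds a match on each strand).
ARG1, chr6:131572976-131573275, plus strand: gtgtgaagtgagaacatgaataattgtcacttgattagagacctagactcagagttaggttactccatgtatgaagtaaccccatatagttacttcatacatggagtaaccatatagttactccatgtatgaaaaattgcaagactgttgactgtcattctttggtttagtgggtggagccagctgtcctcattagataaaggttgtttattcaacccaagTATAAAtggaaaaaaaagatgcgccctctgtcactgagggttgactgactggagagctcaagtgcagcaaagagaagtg
OTC, chrX:38352354-38352653, plus strand: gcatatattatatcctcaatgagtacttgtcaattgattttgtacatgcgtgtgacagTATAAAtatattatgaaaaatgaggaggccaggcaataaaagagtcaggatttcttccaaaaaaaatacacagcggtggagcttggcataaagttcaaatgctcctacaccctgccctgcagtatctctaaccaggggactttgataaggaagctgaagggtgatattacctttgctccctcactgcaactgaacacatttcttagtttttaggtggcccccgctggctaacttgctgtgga
ARG2, chr14:67619670-67619969, plus strand: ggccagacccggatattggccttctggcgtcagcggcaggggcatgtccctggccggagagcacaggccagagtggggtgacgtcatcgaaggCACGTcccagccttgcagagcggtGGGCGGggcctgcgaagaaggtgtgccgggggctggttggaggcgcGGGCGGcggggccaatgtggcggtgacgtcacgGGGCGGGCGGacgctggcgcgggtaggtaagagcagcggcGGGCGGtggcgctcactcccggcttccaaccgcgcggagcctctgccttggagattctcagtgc
ASS1, the second of 2 windows, chr9:130444711-130445010, plus strand: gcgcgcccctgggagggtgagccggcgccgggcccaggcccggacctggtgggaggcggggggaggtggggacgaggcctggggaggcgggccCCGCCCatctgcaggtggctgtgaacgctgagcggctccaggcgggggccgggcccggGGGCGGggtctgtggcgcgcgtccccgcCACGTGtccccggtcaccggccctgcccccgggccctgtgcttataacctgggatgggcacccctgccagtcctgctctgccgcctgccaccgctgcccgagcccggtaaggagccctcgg

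The windows fell into 2 kinds. GC content was 40.0% for ARG1, 41.7% for OTC and 36.7%, 45.3% and 40.3% for the 3 windows of CPS1, below the median of 58.7% over all 35116 promoters, and none of these 5 windows holds a GC box. It was 64.3% for NAGS, 67.3% for GLS2, 71.0% for ARG2, 71.7% and 78.3% for ASS1, 74.0% for ASL and 77.3% for GLUD1, and each of these windows holds at least 1 GC box, which 45.0% of all promoters have. The letters TATAAA lie 29 bases before the ARG1 start site and 192 before that of OTC, against 11.5% of all promoters with a match. Whether either match works as a TATA box was not tested. ACGTG was matched in ARG2, in the second ASS1 window and in 1 CPS1 window, and in 21.4% of all promoters. The letters TGATGNAA (C/EBP-ATF response element), TTGCNNAA (C/EBP site) and CAAAGTCCA (core of an HNF4A site), found in 3.6%, 10.5% and 0.4% of all promoters, were in none of the 12 windows.

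The libraries held 46613302 to 76860251 reads counted on genes. Replicates were closest in the Hep3B groups and in parental and CR Huh7 cells, where the log2 difference between replicates had an SD over genes of 0.24 to 0.31, and lay further apart in Huh7 DMSO cells (0.57) and Huh7-IR cells (0.57). In a list of 10 hypoxia-responsive genes, replicate 2 of the DMSO cells stood apart from replicate 1. The summed level was 978 CPM (reads counted on a gene, scaled to the same total in every library) against 283 in Huh7, and 448 against 176 in Hep3B. The list was at 233 and 303 CPM in parental and 368 to 556 CPM in resistant Huh7 libraries. In Hep3B it was at 166 and 186 CPM in parental and 584 to 670 CPM in resistant libraries, the latter all above DMSO replicate 2. The summed level of 11 hepatocyte markers was 7294 to 22105 CPM in the parental libraries, 17462 to 37815 in the DMSO libraries and 124 to 10403 in the resistant libraries. Lists of markers of other cell types moved too. The summed fibroblast list was 4.19 to 14.5 CPM in untreated and 12.9 to 548 CPM in resistant libraries, where collagen genes made up most of it and THY1 stayed below 0.1 CPM. The summed level of 3 immune markers was 3.58 to 10.4 CPM in parental, 5.12 to 33.0 in DMSO and 27.7 to 72.0 in resistant libraries, nearly all of the last from the macrophage and lysosome gene CD68 (27.6 to 71.9), with CD3E (T cells) below 0.1 CPM throughout and PTPRC at most at 1.32. The summed level of 4 endothelial markers was 0.0927 to 1.04 CPM in resistant and 0.366 to 6.36 CPM in untreated libraries, highest in Huh7 DMSO replicate 2, where PECAM1 was at 4.40, and KDR stayed below 0.1. The part of these differences in the results below was not tested. In bulk RNA, fewer cells that express a gene and less of its RNA per cell cannot be told apart.

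Of the 9 genes, 8 reached 1 CPM in at least 2 libraries and were tested among 15019 genes. OTC was never at 1 CPM, and ARG1 passed only through the 4 DMSO libraries. Changes are log2 fold changes of CPM + 1 from limma with its SE, and a gene is called where the Benjamini-Hochberg adjusted p over all genes is under 0.05 and the change is at least 0.58. In Huh7-IR cells 2 of the 8 genes rose (ASS1, ASL) and 2 fell (ARG2, GLUD1), beside 48.8% of all genes called, 31.1% higher and 17.8% lower. In Huh7-CR cells 1 rose (ASS1) and 2 fell (ARG2, GLUD1), beside 34.5% called, 20.9% higher and 13.6% lower. In Hep3B-IR cells 3 rose (ARG2, NAGS, GLS2) and GLUD1 fell, beside 27.1% called, 15.7% higher and 11.4% lower. In Hep3B-CR cells 4 rose (ASS1, ARG2, NAGS, GLS2) and GLUD1 fell, beside 32.2% called, 20.0% higher and 12.3% lower. In each Huh7 comparison the share called was near that of all genes. Sentences below on libraries that do not overlap describe the values only, because the share of all genes that separate in this way was not counted. The median change of the 8 genes was 0.05, -0.20, 0.41 and 0.60 in these 4 comparisons in the same order, beside 0.19, 0.07, 0.06 and 0.11 over all genes. Among all genes called, 63.6%, 60.6%, 57.9% and 61.9% were higher, and with quantile normalization 49.8%, 49.3%, 47.7% and 49.2%.

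**Figure D1:**
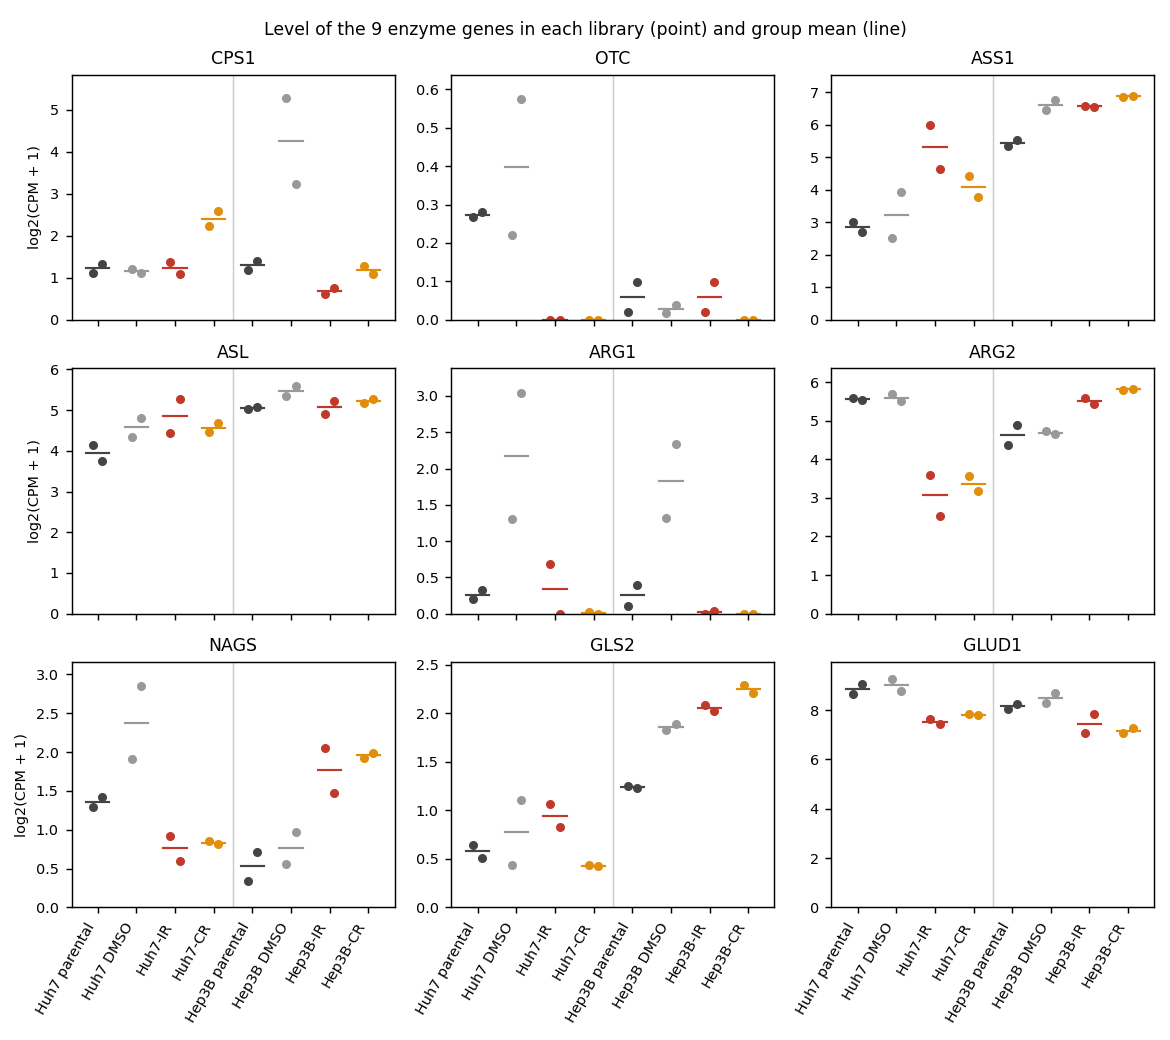
Level of each of the 9 genes as log2(CPM + 1) in every library (points) with the group mean (line), Huh7 groups on the left and Hep3B groups on the right of each panel. GLUD1 is lower in all 8 resistant libraries than in the parental libraries of the same line, and ARG2 drops in Huh7 but not in Hep3B.

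Per kilobase of transcript, GLUD1 was the most abundant of the 9 in 6 of the 8 groups, with means of 56.0 to 159 CPM per kb, and ASS1 led in the resistant Hep3B lines, with 61.5 beside 54.8 for GLUD1 in IR and 75.8 beside 43.3 in CR cells. In parental Huh7 cells the order was GLUD1 (142 CPM per kb), ARG2 (24.2), ASL (6.75), ASS1 (4.09), NAGS (0.737), CPS1 (0.232), GLS2 (0.209), ARG1 (0.138) and OTC (0.137). In parental Hep3B cells it was GLUD1 (86.5), ASS1 (27.7), ASL (15.1), ARG2 (12.6), GLS2 (0.570), CPS1 (0.254), NAGS (0.217), ARG1 (0.135) and OTC (0.0275). CPS1, NAGS and OTC, which bring ammonia into the cycle, were thus read at under 1 CPM per kb in both parental lines, as were ARG1 and GLS2. The argininosuccinate enzymes, ARG2 and GLUD1 were read at 4 or more.

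CPS1 (chr2:211342406-211543831 on GRCh37, plus strand, 38 exons), the entry enzyme of the cycle, was low in every group but 2. It was read at 1.16 and 1.51 CPM in parental Huh7 cells, 1.32 and 1.16 in DMSO cells, 1.59 and 1.14 in Huh7-IR cells and 3.66 and 5.03 in Huh7-CR cells. In Hep3B it was at 1.28 and 1.65 CPM in parental, 37.6 and 8.43 in DMSO, 0.535 and 0.696 in IR and 1.43 and 1.12 in CR cells. Both Huh7-CR libraries thus lay above the other Huh7 libraries, and both Hep3B-IR libraries below the other Hep3B libraries. The log2 change was 1.18 ± 0.45 (SE) in Huh7-CR cells (limma, adjusted p = 0.052) and -0.61 ± 0.45 in Hep3B-IR cells (adjusted p = 0.34), and neither was called. The Huh7-CR value was called by edgeR (1.59, adjusted p = 0.031) and DESeq2 (1.60, adjusted p = 0.0095) on the reads and against DMSO cells (1.24, adjusted p = 0.043), where the resistant Hep3B lines were called lower (-3.56 for IR, -3.07 for CR). The interval of the change ran from -0.97 to 0.99 in Huh7-IR cells, where its sign turned with the scaling, and from -1.09 to 0.87 in Hep3B-CR cells.

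NAGS (chr17:42081990-42086436, plus strand, 7 exons), which makes the activator of CPS1, rose in both resistant Hep3B lines. In Hep3B it was read at 0.269 and 0.647 CPM in parental cells, 0.468 and 0.960 in DMSO cells, 3.16 and 1.78 in IR cells and 2.81 and 2.97 in CR cells, with all 4 resistant libraries above all 4 untreated ones. The log2 change was 1.23 ± 0.29 for IR (limma, adjusted p = 0.0066) and 1.43 ± 0.29 for CR (adjusted p = 0.0023). At these levels the added 1 CPM shrinks a fold change, and edgeR on the reads gave 2.35 and 2.52, whereas a pseudocount of 4 CPM put the IR value at 0.53, under the fold limit. Without replicate 1 of the parental cells the Hep3B-IR value was 1.04 (adjusted p = 0.060), and without replicate 1 of the Hep3B-IR cells 0.94 (adjusted p = 0.078), neither of them called. In Huh7 NAGS was at 1.44 and 1.67 CPM in parental, 2.74 and 6.22 in DMSO, 0.895 and 0.515 in IR and 0.804 and 0.759 in CR cells. All 4 resistant Huh7 libraries lay below the 4 untreated ones, with changes of -0.59 ± 0.29 (adjusted p = 0.099) and -0.52 ± 0.29 (adjusted p = 0.17) that were not called. Both were called with quantile normalization (-1.04 and -0.87) and against DMSO cells (-1.62 and -1.55), and the first by DESeq2 (-1.36, adjusted p = 0.034).

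OTC (chrX:38211839-38280699, plus strand, 10 exons), which makes citrulline, was at the floor of detection. It had 14 and 16 reads in parental Huh7 cells, 12 and 34 in DMSO cells and 0 in each of the 4 resistant Huh7 libraries. Taking 3 reads over the group as the most that a count of 0 allows, OTC was at least 7.46-fold lower in IR and at least 9.84-fold lower in CR than in parental Huh7 cells. These limits cover only the counting error of the 0 counts and take the parental reads as exact. In Hep3B it had 1 and 5 reads in parental, 1 and 2 in DMSO, 1 and 5 in IR and 0 and 0 in CR cells, too few for a difference to be detectable by the test. With no filter on low genes limma gave OTC an adjusted p of 0.025 for the IR and 0.036 for the CR line of Huh7, but a change of only -0.27 on the scale of CPM + 1.

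ASS1 (chr9:133320348-133376661, plus strand, 15 exons), which joins citrulline to aspartate and limits arginine synthesis in many tumours, rose in 3 of the 4 resistant lines. In Huh7 it was read at 7.01 and 5.50 CPM in parental cells, 4.74 and 14.4 in DMSO cells, 62.7 and 24.2 in Huh7-IR cells and 20.4 and 12.6 in Huh7-CR cells. Every resistant Huh7 library lay above the parental ones, and both Huh7-IR libraries above all others of the line. The log2 change was 2.47 ± 0.44 for IR (limma, adjusted p = 0.0005) and 1.24 ± 0.44 for CR (adjusted p = 0.040). In Hep3B the level was 39.9 and 44.9 CPM in parental, 86.1 and 107 in DMSO, 95.5 and 92.8 in IR and 114 and 118 in CR cells. The change was 1.43 ± 0.44 for CR (limma, adjusted p = 0.023) and 1.13 ± 0.44 for IR (adjusted p = 0.069, not called). All resistant Hep3B libraries were above the parental ones, and the IR libraries lay within the range of the DMSO ones.

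The Huh7-IR rise of ASS1 was 1.80 without replicate 1 (adjusted p = 0.0058) and 3.14 without replicate 2 of the resistant cells (adjusted p = 0.00014). The other calls of ASS1 turned on single libraries. The Huh7-CR value was 1.39 (adjusted p = 0.083) and 1.09 (adjusted p = 0.18) without replicate 1 or 2 of the parental cells and 0.91 (adjusted p = 0.24) without replicate 1 of the CR cells, and it was not called with a pseudocount of 4 CPM (0.98, adjusted p = 0.061), no filter (adjusted p = 0.087) or quantile normalization (0.97, adjusted p = 0.074). The Hep3B-CR value was 1.35 to 1.52 without any 1 of its 4 libraries, with adjusted p of 0.077 to 0.098, and with no filter its adjusted p was 0.053. With replicate number added to the fit as a block, the Huh7-CR value was not called either. DESeq2 called the Hep3B-IR value (1.07, adjusted p = 0.046). Against DMSO cells in place of parental cells the Huh7-CR change was 0.86 and those of Hep3B -0.031 (IR) and 0.27 (CR), none of them called, while Huh7-IR cells stayed higher at 2.09 (adjusted p = 0.0017).

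ASL (chr7:65540787-65559684, plus strand, 17 exons), which forms arginine, was called in Huh7-IR cells alone among the resistant lines. It was at 16.5 and 12.4 CPM in parental Huh7 cells, 19.3 and 27.1 in DMSO, 20.9 and 37.5 in IR and 21 and 24.6 in CR cells, and at 31.8 and 32.8, 39.5 and 47.3, 29.2 and 36.5, and 35.4 and 37.9 CPM in the same groups of Hep3B. It rose in Huh7-IR cells by 0.92 ± 0.25 (limma, adjusted p = 0.0082), and its 0.63 ± 0.25 in Huh7-CR cells was not called (adjusted p = 0.065). With replicate number added to the fit as a block, the Huh7-CR value was called (limma, adjusted p = 0.044). In Hep3B the changes were 0.02 ± 0.25 and 0.18 ± 0.25, the first turning its sign with the scaling, with intervals of -0.54 to 0.57 and -0.38 to 0.73. The Huh7-IR call was lost without replicate 2 of the parental cells (0.73, adjusted p = 0.079), without replicate 2 of the Huh7-IR cells (0.51, adjusted p = 0.090) and against DMSO cells (0.28, adjusted p = 0.38). Per kilobase, the ratio of ASL to ASS1 was 1.69 and 1.61 in parental Huh7 libraries and 0.238 and 1.11 in Huh7-IR libraries, and it was 0.219 to 0.570 in all Hep3B libraries.

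**Figure D2:**
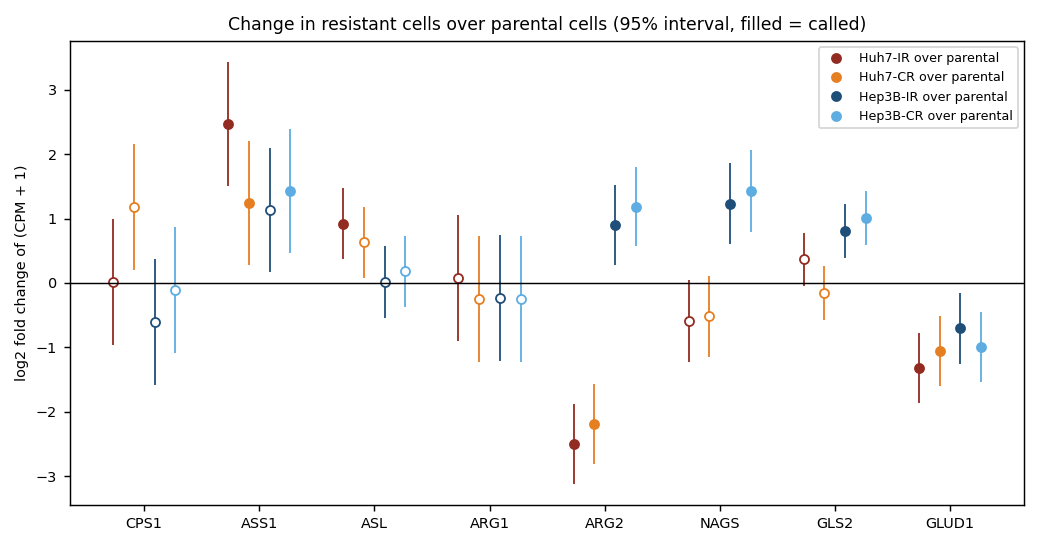
Log2 fold change of CPM + 1 in the 4 resistant lines over the parental cells of the same line for the 8 genes tested, with the 95% interval from limma; filled points are called. The ARG2 points lie at -2.50 and -2.19 for Huh7 and at 0.90 and 1.19 for Hep3B, and the 4 GLUD1 points lie between -1.32 and -0.71.

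ARG1 (chr6:131791972-131905472, plus strand, 8 exons), the hepatocyte arginase and a defining enzyme of the liver, was highest in the DMSO cells and hardly read in resistant cells. It had 10 and 19 reads in parental Huh7 cells, 106 and 502 in DMSO, 37 and 0 in IR and 1 and 0 in CR cells. In Hep3B it had 6 and 22 reads in parental, 115 and 296 in DMSO, 0 and 2 in IR and 0 and 0 in CR cells. The 37 reads of 1 Huh7-IR library stood alone among the 8 resistant libraries, the other 7 of which held 0 to 2. In Hep3B-CR cells ARG1 was at least 8.22-fold lower than in parental cells, against the limit of 3 reads over the group, a bound that was 3.45 against parental replicate 1 alone and 13.2 against replicate 2 alone. These bounds too take the parental reads as exact. On the scale of CPM + 1 the 4 changes lay between -0.25 and 0.08, that of Huh7-IR cells turning to -0.12 with quantile normalization, and none was called by limma. edgeR made no call either (adjusted p = 0.074 to 0.78), whereas DESeq2 on the reads called ARG1 lower in both CR lines, with an adjusted p of 0.029 for Huh7 and 0.0058 for Hep3B.

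ARG2 (chr14:68086637-68118425, plus strand, 8 exons), the mitochondrial arginase, fell in both resistant Huh7 lines and rose in both resistant Hep3B lines. In Huh7 it was read at 47.0 and 45.6 CPM in parental cells, 51.1 and 44.3 in DMSO cells, 11.2 and 4.76 in Huh7-IR cells and 10.8 and 8.08 in Huh7-CR cells. In Hep3B it was at 19.7 and 28.5 CPM in parental, 25.4 and 24.3 in DMSO, 47.4 and 42.5 in IR and 54.3 and 56.0 in CR cells. In each line the 4 resistant and the 4 untreated libraries did not overlap, a separation not counted over all genes. The parental order of the lines was turned around in resistant cells. In Huh7 the log2 change was -2.50 ± 0.28 for IR (limma, adjusted p = 1.7e-05) and -2.19 ± 0.28 for CR (adjusted p = 8.3e-05). In Hep3B it was 0.90 ± 0.28 for IR (limma, adjusted p = 0.030) and 1.19 ± 0.28 for CR (adjusted p = 0.0061). Parental and DMSO cells gave the same calls as reference in all 4 lines.

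The 2 Huh7 falls of ARG2 were called under every alternative run. The Hep3B-IR rise was 0.64 (adjusted p = 0.21) without replicate 1 of the parental cells, 0.82 (adjusted p = 0.15) and 0.97 (adjusted p = 0.077) without replicate 1 or 2 of the resistant cells, 0.83 (adjusted p = 0.055) by edgeR, 0.84 (adjusted p = 0.050) with quantile normalization, just over the limit, and 0.90 (adjusted p = 0.058) with no filter. The Hep3B-CR rise was 0.93 (adjusted p = 0.063) without replicate 1 of the parental cells. Exons of ARG2 overlap those of VTI1B on the opposite strand, and whether counting used the strand is not given in the sources used here.

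Per kilobase, ARG1 made up 0.407% and 0.732% of the summed arginase level in parental Huh7 libraries and 0.540% and 1.42% in parental Hep3B libraries. Its share was 3.64% and 17.7% in the DMSO libraries of Huh7 and 7.22% and 18.1% in those of Hep3B. In both lines the larger share was in DMSO replicate 2, which had the higher hypoxia list among the DMSO replicates. In resistant libraries the share was 0 to 0.189%, apart from 6.76% in the Huh7-IR library with 37 ARG1 reads. ARG2 was thus the main arginase transcript in all 16 libraries, at more than 80% throughout.

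**Figure D3:**
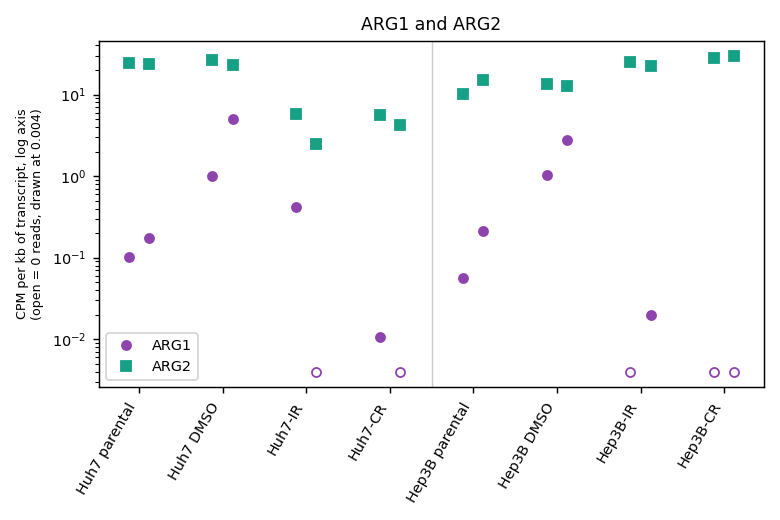
CPM per kb of transcript, on a log axis, for ARG1 (circles) and ARG2 (squares) in every library of the 8 groups, with open circles for libraries that had 0 ARG1 reads. ARG2 lies above ARG1 in all 16 libraries, and ARG1 comes nearest to it in replicate 2 of the DMSO cells, where its share is 17.7% (Huh7) and 18.1% (Hep3B).

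GLS2 (chr12:56864728-56882198, minus strand, 18 exons), the glutaminase of periportal hepatocytes, rose in both resistant Hep3B lines at a low level. In Hep3B it was at 1.37 and 1.35 CPM in parental, 2.56 and 2.70 in DMSO, 3.24 and 3.06 in IR and 3.89 and 3.64 in CR cells, and no 2 of these groups overlapped. In Huh7 it was at 0.568 and 0.429 CPM in parental, 0.359 and 1.15 in DMSO, 1.09 and 0.772 in IR and 0.355 and 0.340 in CR cells. The Hep3B log2 change was 0.81 ± 0.19 for IR (limma, adjusted p = 0.0067) and 1.01 ± 0.19 for CR (adjusted p = 0.0015). In Huh7 it was 0.36 ± 0.19 and -0.15 ± 0.19, not called. With DMSO cells as reference the Hep3B changes were 0.19 (adjusted p = 0.47) and 0.39 (adjusted p = 0.13), and edgeR gave 1.15 (adjusted p = 0.051) and 1.35 (adjusted p = 0.023) over parental cells. A pseudocount of 4 CPM put both under the fold limit (0.41 and 0.53), as did quantile normalization for IR (0.49). Exons of GLS2 overlap SPRYD4 on the opposite strand and ENSG00000285528 on the same strand.

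GLUD1 (chr10:88809959-88854600, minus strand, 13 exons), which turns glutamate into 2-oxoglutarate and ammonia, fell in all 4 resistant lines. In Huh7 it was read at 400 and 536 CPM in parental, 615 and 433 in DMSO, 196 and 174 in IR and 226 and 219 in CR cells. In Hep3B it was at 266 and 305 CPM in parental, 315 and 417 in DMSO, 133 and 229 in IR and 132 and 153 in CR cells. In both lines every resistant library lay below every untreated library. The Huh7 log2 change was -1.32 ± 0.25 for IR (limma, adjusted p = 0.00076) and -1.05 ± 0.25 for CR (adjusted p = 0.0054). The Hep3B change was -0.71 ± 0.25 for IR (limma, adjusted p = 0.049) and -1.0 ± 0.25 for CR (adjusted p = 0.0082).

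The Huh7-IR fall of GLUD1 was called under every alternative run. The Hep3B-IR fall was -0.31 (adjusted p = 0.44) without replicate 1 of the resistant cells, -0.81 (adjusted p = 0.094) and -0.61 (adjusted p = 0.23) without replicate 1 or 2 of the parental cells and -0.72 (adjusted p = 0.066) by edgeR, and was also lost with no filter (adjusted p = 0.095), a pseudocount of 4 CPM (adjusted p = 0.053) and Hep3B alone (adjusted p = 0.068). The Huh7-CR fall was -0.84 (adjusted p = 0.061) without replicate 2 of the parental cells, and the Hep3B-CR fall was -0.89 without replicate 2 of the parental cells (adjusted p = 0.066) or replicate 1 of the CR cells (adjusted p = 0.062). GLUD1 shares most of its sequence with its retrocopy GLUD2, and the ratio of GLUD2 to GLUD1 reads was 0.325 to 0.421 in all 16 libraries, so how the reads divide between them is uncertain. With the reads of both summed, an alternative chosen after seeing the data, the 4 changes were -1.32, -1.06, -0.72 and -1.05 and all were called. Exons of GLUD1 overlap SHLD2 on the opposite strand. GENCODE names 6 pseudogenes of GLUD1 and 14 of ASS1, which may take reads under the unique mapping used.

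In DMSO over parental cells 1 of the 8 genes was called in each line. In Huh7 it was called higher beside 4.83% of all genes called and 3.46% called higher, and was ARG1 at 1.91 ± 0.45 (limma, adjusted p = 0.035). ARG1 entered the test only because the DMSO libraries reached 1 CPM, so this call describes the values that admitted it and nothing is drawn from it. Without replicate 2 of the DMSO cells it was 1.04 (adjusted p = 0.26) and without replicate 1 2.78 (adjusted p = 0.00038). Without either parental library it was 1.84 (adjusted p = 0.16) and 1.97 (adjusted p = 0.14), and edgeR did not call it (adjusted p = 0.062). In Hep3B 1 of 8 rose, beside 1.58% called and 1.07% called higher, and this was CPS1 at 2.96 ± 0.45 (adjusted p = 0.0078), with 37.6 and 8.43 CPM in the DMSO libraries. Its value was 1.94 (adjusted p = 0.0029) and 3.97 (adjusted p = 3.9e-05) without replicate 1 or 2 of the DMSO cells and 2.85 (adjusted p = 0.094) without replicate 1 of the parental cells. The higher CPS1 library was replicate 1, not the DMSO replicate with the higher hypoxia list.

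The parental lines differed in 6 of the 8 genes, beside 42.6% of all genes called. In Huh7 over Hep3B parental cells, 3 genes were higher, ARG2 (0.94 ± 0.28, limma, adjusted p = 0.015), NAGS (0.82 ± 0.29, adjusted p = 0.033) and GLUD1 (0.70 ± 0.25, adjusted p = 0.035), beside 18.9% of all genes. The 3 lower genes were ASS1 (-2.59 ± 0.44, adjusted p = 0.0004), ASL (-1.12 ± 0.25, adjusted p = 0.0029) and GLS2 (-0.66 ± 0.19, adjusted p = 0.013), beside 23.7%. The values for ASS1 and ASL were called under every alternative run. Each of the other 4 was lost without replicate 1 of the Hep3B parental cells, at 0.68 (adjusted p = 0.14) for ARG2, 0.63 (adjusted p = 0.19) for NAGS, 0.60 (adjusted p = 0.17) for GLUD1 and -0.65 (adjusted p = 0.057) for GLS2. It was also lost without replicate 2 of the Huh7 parental cells, at 0.96 (adjusted p = 0.057), 0.76 (adjusted p = 0.13), 0.49 (adjusted p = 0.23) and -0.59 (adjusted p = 0.078) in the same order. Without replicate 1 of the Huh7 parental cells ARG2 (0.92, adjusted p = 0.067) and NAGS (0.89, adjusted p = 0.080) were not called, and without replicate 2 of the Hep3B parental cells GLUD1 (0.80, adjusted p = 0.068) and GLS2 (-0.67, adjusted p = 0.052) were not. With no filter NAGS (adjusted p = 0.063) and GLUD1 (adjusted p = 0.072) were not called, with a pseudocount of 4 CPM NAGS (0.32) and GLS2 (-0.25) were not, and with GLUD2 reads added GLUD1 was not (0.63, adjusted p = 0.058).

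Between the 2 routes to resistance, increasing and constant Sorafenib, limma called 0 of the 8 genes in Huh7 and 0 in Hep3B, beside 13.7% of all genes (8.23% higher and 5.43% lower in IR) and 11.7% (5.33% higher and 6.41% lower). In Huh7 3 genes had an unadjusted p under 0.05, CPS1 (-1.17 ± 0.45 in IR over CR), ASS1 (1.23 ± 0.44) and GLS2 (0.52 ± 0.19), with adjusted p of 0.093, 0.076 and 0.084. edgeR called 0 there and DESeq2 4, the same 3 and ARG1. In Hep3B 0 genes had an unadjusted p under 0.05, and edgeR and DESeq2 called 0. The Hep3B intervals ran from -1.47 to 0.49 for CPS1 and from -0.83 to 0.44 for NAGS, so differences within these ranges between the routes remain possible.

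The resistant change, taken as the mean of IR and CR over parental cells, differed between Huh7 and Hep3B for 3 of the 8 genes, all lower in Huh7, beside 29.4% of all genes called and 13.1% lower. ARG2 differed by -3.39 ± 0.35 (limma, adjusted p = 2.9e-05), NAGS by -1.89 ± 0.36 (adjusted p = 0.0019) and GLS2 by -0.81 ± 0.24 (adjusted p = 0.021). The ARG2 and NAGS values were called under every alternative run. The call for GLS2 was lost with a pseudocount of 0.25 CPM (-1.03, adjusted p = 0.067) or 4 CPM (-0.43, under the fold limit), by edgeR (-1.19, adjusted p = 0.11), by DESeq2 (-1.18, adjusted p = 0.11) and without replicate 1 of the Huh7 parental cells (-0.74, adjusted p = 0.083), replicate 1 (-0.81, adjusted p = 0.066) or replicate 2 (-0.80, adjusted p = 0.066) of the Hep3B parental cells. For GLUD1 the difference was -0.34 ± 0.31 (interval -1.01 to 0.33) and for ASS1 0.57 ± 0.54 (interval -0.61 to 1.75), and neither was called. The parental libraries enter each resistant comparison of a line, so that the IR and CR values of a line are not independent.

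Among the neighbours of these enzymes, a list of 47 other genes of nitrogen, glutamine, arginine and proline metabolism and amino acid transport, 40 were tested. Of these, 11 rose and 10 fell in the IR line and 10 rose and 10 fell in the CR line of Huh7, and 12 rose and 5 fell in the IR line and 13 rose and 4 fell in the CR line of Hep3B. Their median change was -0.06, -0.11, 0.03 and 0.18, beside the all-gene medians given above. The share called was 52.5%, 50%, 42.5% and 42.5%, beside 48.8%, 34.5%, 27.1% and 32.2% of all genes, so that in Huh7-IR cells it was near that of all genes. Most of the genes named next were picked for being called in 1 direction in at least 3 of the 4 comparisons, so that their common direction follows from the choice.

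SLC25A12, the mitochondrial aspartate-glutamate carrier of muscle and brain, which exports the aspartate that ASS1 uses, was at 1.05 to 1.59 CPM in untreated and 21.9 to 29.7 CPM in resistant Huh7 libraries, and at 1.25 to 4.15 CPM in untreated and 6.01 to 23.7 CPM in resistant Hep3B libraries. It rose by 3.61 ± 0.30 (IR) and 3.57 ± 0.30 (CR) in Huh7 and by 1.65 ± 0.30 (IR) and 3.06 ± 0.30 (CR) in Hep3B (limma, adjusted p = 1.8e-06 to 0.0014). The liver form of this carrier, SLC25A13, was at 102 to 215 CPM and was called in no comparison with parental cells, with changes of -0.51 to -0.13 in resistant cells. Its Hep3B values, -0.51 ± 0.15 (IR) and -0.47 ± 0.15 (CR), had adjusted p of 0.020 and 0.023 (limma) but lay under the fold limit. They were called under 3 and 4 of 14 alternatives. SLC25A15, which brings ornithine to OTC, fell in the CR line of Huh7 (-0.77 ± 0.19) and in both resistant lines of Hep3B (-0.60 ± 0.19 for IR, -0.68 ± 0.19 for CR), with adjusted p of 0.0060 to 0.027 and calls lost under 1, 3 and 2 of 14 alternatives, and was at -0.53 ± 0.19 in Huh7-IR cells, under the fold limit. SLC7A1, the main arginine importer of dividing cells, rose in Huh7-IR (2.38 ± 0.21), Huh7-CR (2.09 ± 0.21) and Hep3B-CR cells (1.61 ± 0.21), but its 0.53 ± 0.21 in Hep3B-IR cells was not called.

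SLC1A5, a glutamine importer, went from 140 to 188 CPM in parental Huh7 libraries to 383 to 492 in resistant ones and from 144 and 172 to 323 to 438 in Hep3B, with changes of 1.42 ± 0.21, 1.40 ± 0.21, 1.15 ± 0.21 and 1.33 ± 0.21 in the order used above. ASNS, which makes asparagine from aspartate with the amide of glutamine, rose by 2.44 ± 0.27, 2.26 ± 0.27, 1.58 ± 0.27 and 1.96 ± 0.27 (adjusted p = 1.3e-05 to 0.00082). GFPT1, the entry enzyme of hexosamine synthesis, rose in all 4 lines over parental cells (0.87 to 1.80). It was also called higher in Huh7 DMSO over parental cells (0.88 ± 0.19, limma, adjusted p = 0.023). Against DMSO cells, 1 of 14 alternatives, its value was 0.315 in Huh7-IR cells, under the fold limit, and -0.013 in Huh7-CR cells. SLC38A5, another glutamine transporter, rose by 3.08 ± 0.25 and 2.83 ± 0.25 in the resistant Huh7 lines and by 0.69 ± 0.25 in Hep3B-CR cells, the last at 1.05 and 0.609 CPM and lost under 8 of 14 alternatives. CAD, which makes carbamoyl phosphate from glutamine for pyrimidines, was called only in Hep3B-CR cells among the 4 comparisons (0.69 ± 0.15, limma, adjusted p = 0.0029), a call lost under 4 of 14 alternatives. Its values in Hep3B-IR (0.47 ± 0.15, adjusted p = 0.027) and Huh7-IR cells (0.38 ± 0.15, adjusted p = 0.042) missed only the fold limit, and in Huh7-CR cells it was at -0.10 ± 0.15.

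PYCR1, the last step of proline synthesis, rose in all 4 lines (0.77 to 2.18), although the Hep3B-IR call (0.77) was lost under 6 of 14 alternatives. GPT2, the mitochondrial alanine aminotransferase, rose in both IR lines (1.17 ± 0.21 in Huh7, 1.15 ± 0.21 in Hep3B) and in Hep3B-CR cells (1.48 ± 0.21), with 0.55 ± 0.21 in Huh7-CR cells not called (adjusted p = 0.053). Against DMSO cells the GPT2 value was 0.516 in Huh7-IR cells, under the fold limit, and -0.106 in Huh7-CR cells. GLUL, glutamine synthetase, fell in both CR lines (-0.69 ± 0.25 in Huh7, limma, adjusted p = 0.046; -0.75 ± 0.25 in Hep3B, adjusted p = 0.034) and in Hep3B-IR cells (-1.02 ± 0.25, adjusted p = 0.0090), and the CR calls were lost under 7 and 5 of 14 alternatives. AGMAT, annotated as an agmatinase, fell in all 4 lines, at -3.72 ± 0.33, -2.75 ± 0.33, -1.36 ± 0.33 and -1.39 ± 0.33 (adjusted p = 2.6e-06 to 0.0075), and each Hep3B call was lost under 2 of 14 alternatives. GLUD2 was at -1.31, -1.08, -0.74 and -1.19, called in all but Hep3B-IR cells, next to the GLUD1 values that it may share reads with.

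**Figure D4:**
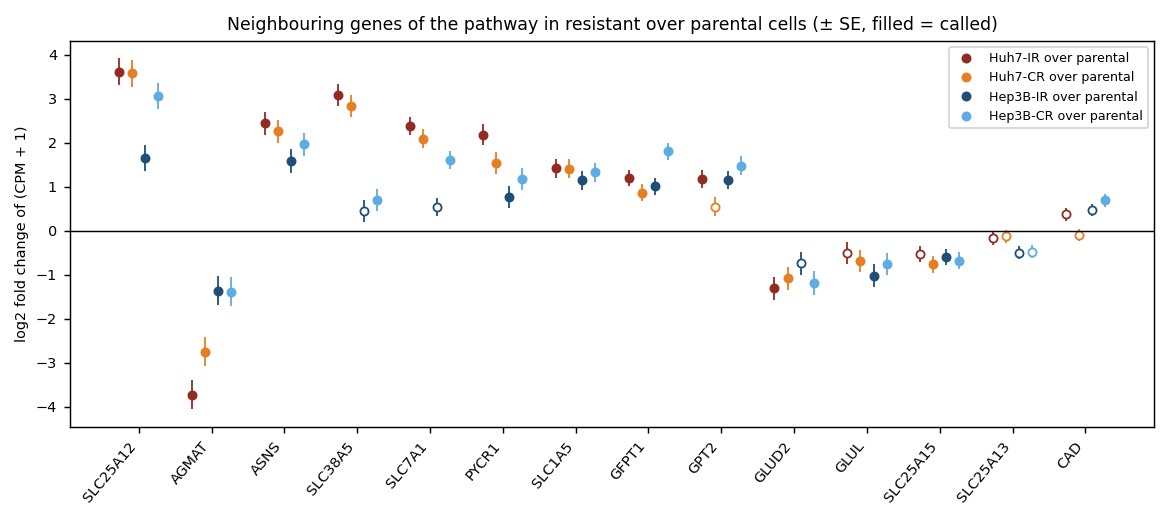
Log2 fold change of CPM + 1 (± SE) in the 4 resistant lines over parental cells for the 14 named neighbouring genes; filled points are called. The 4 SLC25A12 points lie between 1.65 and 3.61, the 4 AGMAT points between -3.72 and -1.36, and none of the SLC25A13 points is filled.

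As a description over the libraries, which share groups and cell lines, Pearson's r of log2(CPM + 1) over the 28 pairs of the 8 tested genes was 0.90 between ASS1 and GLS2, 0.80 between ASS1 and ASL, 0.74 between ASL and GLS2, 0.70 between ARG2 and NAGS and -0.65 between ASS1 and GLUD1, and the other pairs lay between -0.51 and 0.59. The genes with the most similar pattern to ASS1 among all genes tested were UBAC2 (r = 0.972), C6orf136 (0.970) and STK24 (0.965). For ARG2 they were NDUFB9 (0.948), HINT1 (0.936) and CCAT1 (0.927), and for NAGS SPRY4 (0.913), PLAC8 (0.911) and ANKRD13A (0.894). For GLUD1 they were GLUD2 (0.984), SLC35D1 (0.936) and SCML2 (0.936), and for ASL TNS2 (0.966), SUMF2 (0.955) and FHDC1 (0.942). GLS2 was nearest to GSTZ1 (0.984), HCN2 (0.974) and a gene listed only by its number, 79686 (0.967). ARG1 was nearest to CSF3R (0.978), ITIH3 (0.949) and F12 (0.933), values set mainly by the 4 DMSO libraries, and CPS1 to SCN7A (0.838), CXCL10 (0.836) and KCNH2 (0.835).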

How the data were processed

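The authors aligned single-end reads to hg19 with STAR, keeping unique hits, counted them over RefSeq exons with QuasR and deposited CPM (read counts divided by the library's total on genes) for each library. The deposited CPM values were whole multiples of 1 read within 0.05 reads for 100.0% of values, so read numbers were recovered for all 16 libraries. Here log2(CPM + 1) was fitted for the 15019 genes that reached 1 CPM in 2 or more libraries, with limma 3.58.1 (R 4.3.3, mean-variance trend, 8 group means, two-sided, 95% intervals). The method was run on simulated reads that had the same spread setting for all genes and groups. That run does not cover the wider spread between replicates of Huh7 DMSO and Huh7-IR cells. Replicate differences correlated above 0.1 in 13 of 28 group pairs and below -0.1 in 5, so whether replicate numbers pair the libraries is unsettled. The main fit did not pair them. Alternatives were other pseudocounts, no filter, TMM, quantile normalization, edgeR 4.0.16 and DESeq2 1.42.0 on the reads, a replicate block, each line alone, DMSO as reference and leaving out each library. Genes were named as follows: the 9 genes, neighbouring genes called in 1 direction in at least 3 of the 4 resistant comparisons (at most 12 by mean absolute change), GLUL, SLC25A15, SLC25A13 and CAD, and for likeness the 3 highest Pearson correlations. Some genes of the lists are not reported here. Of 26258 gene numbers 26111 matched a symbol. Gene positions are from GENCODE on GRCh37. The genes and lists were chosen with earlier results of these data known.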

Additional observations from a re-analysis of the deposited data

Results flagged for a closer look

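The change in resistant over parental cells differed between Huh7 and Hep3B by the test of the difference itself for 3 of the 8 genes tested. In the same test 29.4% of all genes were called and 13.1% were called lower in Huh7, as these 3 were. For ARG2 the difference was -3.39 ± 0.35 (SE, log2), with changes of -2.50 (IR) and -2.19 (CR) in Huh7 beside 0.90 (IR) and 1.19 (CR) in Hep3B. For NAGS it was -1.89 ± 0.36, with -0.59 and -0.52 beside 1.23 and 1.43. For GLS2 it was -0.81 ± 0.24, with 0.36 and -0.15 beside 0.81 and 1.01, and edgeR and DESeq2 did not call it (adjusted p = 0.11 for each).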

How the results depend on the processing

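The 10 counts of called genes were within 1.5 times the reported one in 119 of 150 alternative settings. In Huh7-CR cells 5 of 8 genes were called in place of 3 by DESeq2, against DMSO cells and with unadjusted p. In Hep3B-IR cells 2 were called in place of 4 with a pseudocount of 4 CPM, no filter or quantile normalization, and 1 by edgeR. In Huh7 DMSO cells 0 were called in place of 1 with a pseudocount of 4 CPM, no filter, edgeR or Huh7 alone, and 3 with unadjusted p. In Hep3B DMSO cells 4 were called with Hep3B alone or unadjusted p. Between Huh7-IR and Huh7-CR cells DESeq2 called 4 and unadjusted p 2 in place of 0. Leaving out 1 library gave 3 to 4 calls in Huh7-IR, 1 to 3 in Huh7-CR, 1 to 3 in Hep3B-IR, 3 to 4 in Hep3B-CR, 0 to 3 in Huh7 DMSO, 0 to 1 in Hep3B DMSO, 2 to 4 between parental lines, 0 to 1 between Huh7-IR and Huh7-CR, 0 to 0 between Hep3B-IR and Hep3B-CR and 2 to 4 for the difference between lines, where the lone library of a group is assumed to vary like the others. Of 712 settings of 48 single values, 593 kept direction and call, 77 lost and 22 gained the call and 20 changed sign. The sign changes were CPS1 in Huh7-IR (0.01 to -0.10 with TMM, -0.46 with quantile normalization, -0.18 by edgeR, -0.19 by DESeq2, and -0.13 to 0.15 without 1 library), ASL in Hep3B-IR (0.02 to -0.044 with TMM, -0.035 by edgeR, -0.031 with quantile normalization, -0.051 by DESeq2, -0.39 against DMSO cells, and -0.14 to 0.17 without 1 library), and ARG1 in Huh7-IR (0.08 to -0.12 with quantile normalization, -1.82 against DMSO cells, the group through which ARG1 passed the filter, and -0.26 to 0.43 without 1 library) and between lines (-0.016 to 0.33 without 1 library). Against DMSO cells ASL in Huh7-CR (-0.010), ASS1 in Hep3B-IR (-0.031) and ASL in Hep3B-CR (-0.23) changed sign too. The cause was not tested. The all-gene median in Huh7-IR moved from 0.19 to 0.04 with TMM, 0.00 with quantile normalization, 0.07 by edgeR and 0.06 by DESeq2. Replicate differences of 28 group pairs correlated at -0.22 to 0.44 (median 0.07), and a replicate block kept 46 of 48 values on their side of the threshold, the exceptions being ASS1 (adjusted p = 0.052) and ASL (adjusted p = 0.044) in Huh7-CR cells. For the 14 named neighbours, 705 of 784 settings kept direction and call, and between 10 and 27 of 40 were called. OTC lies under the filter and had a value only without it. Genes read at about 1 CPM or less in several groups (CPS1, ARG1, OTC, NAGS, GLS2) are limited there by depth and by the added 1 CPM.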
